A study of Mus musculus with 3 samples.

Results

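The 10 genes described here, Stmn2, Syt4, Scg2, Snap25, Grin1, Celsr3, Chrnb2, Vgf, Bdnf and Gria2, are neuronal targets of the repressor REST, and DNA methylation around their starts was read in mouse embryonic stem (ES) cells that lack REST. They were chosen by name from 22225 protein-coding genes of GENCODE vM1, and every CpG within 5 kb of their starts was followed on mm9. The measure was the percentage of methylated observations, an observation being a single sequenced copy of a CpG after bisulfite treatment, which converts unmethylated C and leaves both 5-methylcytosine and 5-hydroxymethylcytosine unconverted. The REST knockout ES cells were derived from blastocysts of the Black Agouti 129 background and gave a single whole genome bisulfite library (WG-BisSeq). The wild type ES cells came from blastocysts of mixed 129-C57Bl/6 background and gave 2 libraries of DNA precipitated with an anti-CTCF antibody before bisulfite treatment (CTCF ChIP-BisSeq), in each case pooled from several precipitations. Both cell types were grown on feeder cells or gelatine. Genotype, strain and assay differ together between the REST knockout and the wild type libraries, so their effects cannot be told apart, and the wild type is seen only where ChIP-BisSeq has observations.

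REST is a zinc finger protein that silences neuronal genes in non-neuronal and stem cells by binding a DNA element called RE1 and recruiting corepressor complexes with histone deacetylases and demethylases. Most of its best known targets encode parts of the synapse: proteins of vesicle release, secreted peptides, ion channels and receptors. Sites bound by REST away from promoters can have reduced methylation in ES cells, while CpG-rich promoters are mostly unmethylated whether or not a gene is active.

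An exact match to the 17 base RE1 consensus, searched on both strands, lies within 5 kb of 7 of the 10 genes, against 343 of 22225 protein-coding genes, which is 1.54%. This share concerns sequence only. The genes were chosen as targets of REST, which binds RE1, so the contrast is not independent of that choice. The 7 genes hold 9 exact matches, 2 each at Snap25 and Gria2. With up to 1 mismatch, 15 matches lie near 9 of the genes, but 21.6% of all protein-coding genes then have one. None was found at Scg2 in either search, which says only that these letters do not occur within 5 kb of its start. Shown are 10 of the 15 elements, each 21 bases long on the strand of the motif, 5′ to 3′ on mm9. CpGs are in capitals, and the distance is that of the motif centre from the gene start. The first 8 are exact matches, and the last 2 have 1 mismatch.
Stmn2, −1289 bp, upstream, chr3:8508230-8508250, plus strand: ttcagcaccaCGgacagCGct
Snap25, 843 bp, intron, chr2:136540024-136540044, plus strand: ctcagcaccctggacaggagt
Snap25, 893 bp, intron, chr2:136540074-136540094, plus strand: ttcagcacCGCGgacagCGat
Grin1, 161 bp, exon, UTR, chr2:25174534-25174554, minus strand: ttcagcacctCGgacagcacc
Chrnb2, 166 bp, exon, UTR, chr3:89568376-89568396, minus strand: ttcagcaccaCGgacagCGct
Bdnf, 1353 bp, exon, UTR, chr2:109516202-109516222, plus strand: ttcagcaccttggacagagcc
Gria2, −206 bp, upstream, chr3:80606911-80606931, plus strand: tttagcacCGCGgacagCGct
Gria2, 965 bp, intron, chr3:80605740-80605760, plus strand: gtcagagccctggagagataa
Celsr3, −394 bp, upstream, 1 mismatch, chr9:108728249-108728269, plus strand: ttcagcacCGtgggcagcact
Vgf, −9 bp, upstream, 1 mismatch, chr5:137506144-137506164, minus strand: ttcagcaCGctggacagCGcc

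The Stmn2 and Chrnb2 elements have the same letters from the first base to the last. Of the 9 exact matches, 6 hold at least 1 CpG, which is 66.7%, against 27.2% of the 2151 exact matches in the genome and 58.5% of the 135 within 1 kb of a protein-coding start. The exact match of Syt4, 225 bp downstream of its start in an exon, is described but not printed.

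The libraries differ in depth. The REST knockout library holds 273375318 observations and lists 78.0% of the 21342492 CpGs of mm9, with a median coverage of 6 at listed CpGs. The wild type replicates hold 13411280 and 25262179 observations and list 12.4% and 33.1% of the CpGs. Of the 1885 CpGs within 5 kb of the 10 starts, 1731 were covered in the REST knockout, and no CpG there had more than 117 observations. The knockout label was checked at Rest itself, where 123 consecutive CpGs, chr5:77695242-77697727, had 0 observations in the REST knockout and 88 and 381 in wild type replicates 1 and 2. This stretch touches 2 annotated exons of Rest, and the gene as a whole had 4078 observations in the REST knockout. Of 5 genes taken as ES cell markers, Pou5f1 read 4.04% at its start and Zfp42, Dppa5a and Nanog between 10.7% and 16.7%, but Esrrb read 74.0%.

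All 10 genes had a start below 50% methylation in cells without REST. Within 500 bp on either side, 6 read under 10%, 4 between 10 and 50%, and 0 over 50%. Over 20180 protein-coding genes with at least 10 observations, the same classes held 52.5%, 19.6% and 27.9%. The median was 7.05% for the 10 genes and 8.90% for all. These levels describe a single library, and the 95% intervals given are exact Clopper-Pearson intervals that cover counting error only.

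**Figure D1:**
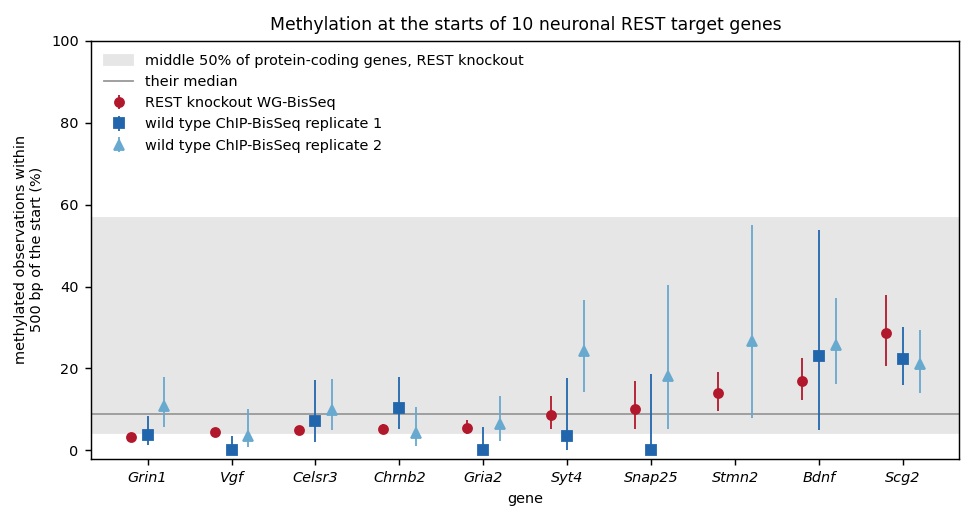
Percentage of methylated observations within 500 bp of the start of each gene (vertical axis), genes ordered by their REST knockout level; circles are REST knockout WG-BisSeq, squares and triangles are wild type CTCF ChIP-BisSeq replicates 1 and 2, bars are exact 95% intervals, and values with fewer than 10 observations are left out. The REST knockout levels run from 3.32% at Grin1 to 28.7% at Scg2, inside or just below the grey band that holds the middle 50% of protein-coding genes, 4.29% to 56.7%.

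Among the proteins of vesicle release, Snap25, a SNARE protein that drives fusion of synaptic vesicles with the membrane, read 10.0% in the REST knockout (chr2:136538689-136539689, 120 observations, interval 5.27 to 16.8%). Wild type replicate 1 read 0 of 18 observations, with an upper limit of 18.5%, and replicate 2 read 18.2% of 22. Syt4, a synaptotagmin found on secretory vesicles, read 8.61% in the REST knockout (209 observations, 5.18 to 13.3%), 3.45% of 29 observations in replicate 1 and 24.2% of 62 in replicate 2. At both genes the wild type replicates stand on opposite sides of the REST knockout.

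Scg2, a granin of dense-core vesicles that is cut into peptides such as secretoneurin, had the highest level of the 10 genes. It read 28.7% in the REST knockout (chr1:79436165-79437165, 115 observations, 20.6 to 37.9%), 22.4% of 143 observations in replicate 1 and 21.0% of 119 in replicate 2. The 3 intervals overlap. Only 1 of its 26 CpGs had a coverage of 10 or more in the REST knockout, so the level rests on many thinly read CpGs. Vgf, a precursor of secreted neuropeptides, read 4.50% (chr5:137505665-137506665, 3198 observations, 3.81 to 5.28%), beside 0 of 103 observations and 3.61% of 83 in the wild type. Bdnf, a neurotrophin with several alternative first exons, had 37 methylated of 218 observations (chr2:109514357-109515357, interval 12.2 to 22.6%), beside 23.1% of 13 observations and 25.7% of 74.

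The receptors had low and tightly measured starts. Grin1, the subunit present in every NMDA receptor, read 3.32% in the REST knockout (chr2:25174207-25175207, 3587 observations, 2.76 to 3.96%), the lowest of the 10, and 15.1% of protein-coding genes read lower. Its wild type values were 3.65% of 137 observations and 10.7% of 112. Of its 81 CpGs covered at least 10 times, 37 had no methylated observation, and the highest read 58.3%. Gria2, the AMPA receptor subunit that limits calcium entry, read 5.49% (chr3:80606213-80607213, 747 observations, 3.97 to 7.37%), with 0 of 63 observations and 6.38% of 94 in the wild type. Chrnb2, the β2 subunit of neuronal nicotinic receptors, read 5.22% (chr3:89568054-89569054, 1800 observations, 4.24 to 6.35%), with 10.4% of 106 and 4.26% of 94.

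Of the genes of axon growth and guidance, Celsr3, a large cadherin needed for axon tracts, read 5.01% (chr9:108728151-108729151, 2217 observations, 4.14 to 6.00%), with 7.14% of 56 observations and 9.90% of 101 in the wild type. Stmn2, a stathmin that regulates microtubules in growing axons, read 14.0% (chr3:8509027-8510027, 222 observations, 9.69 to 19.2%). Wild type replicate 1 had only 1 observation there, and replicate 2 read 26.7% of 15. Stmn2 also has the fewest CpGs near its start, 18, against 82 at Grin1. The 5 genes read lowest in the REST knockout have 43 to 82 CpGs within 500 bp, and the other 5 have 18 to 41. Likewise, the lower levels come with more observations, 747 to 3587 against 115 to 222.

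Other genes known to be regulated by REST were set beside them. Of 26 such genes, 23 read under 10%, 1 between 10 and 50% and 2 over 50%, with a median of 4.61%. Among the lowest were Unc13a at 2.31% and Syt7 at 2.68%, which act in vesicle release. The highest were Gad1 at 66.7% of 57 observations and Scn2a1 at 56.6% of 53, followed by Nefm at 11.5%. The annotated starts of Gad1 and Scn2a1 have only 12 and 11 CpGs within 500 bp. All 11 genes of REST corepressors, from Ehmt2 at 2.07% to Sin3a at 7.78%, read under 10%. Over all protein-coding genes 52.5% read under 10%. Both lists are richer in CpGs, with a median of 67 within 500 bp for the 26 genes and 99 for the corepressors, against 46 for all genes.

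In 500 bp steps out to 5 kb, 125 of 200 windows had at least 10 observations in the REST knockout. Of these, 24 read under 10%, 42 between 10 and 50% and 59 over 50%, which are 19.2%, 33.6% and 47.2%. For the same windows of all protein-coding genes the shares were 12.5%, 26% and 61.5%. Of the 24 windows under 10%, Vgf held 7, Celsr3 6 and Bdnf 3, and the other genes held 0 to 2 each. The genes differ from each other in how far the stretch of windows under 50% reaches, from 1000 bp to 5500 bp. A stretch also ends at a window with fewer than 10 observations, so some lengths are minimum values.

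**Figure D2:**
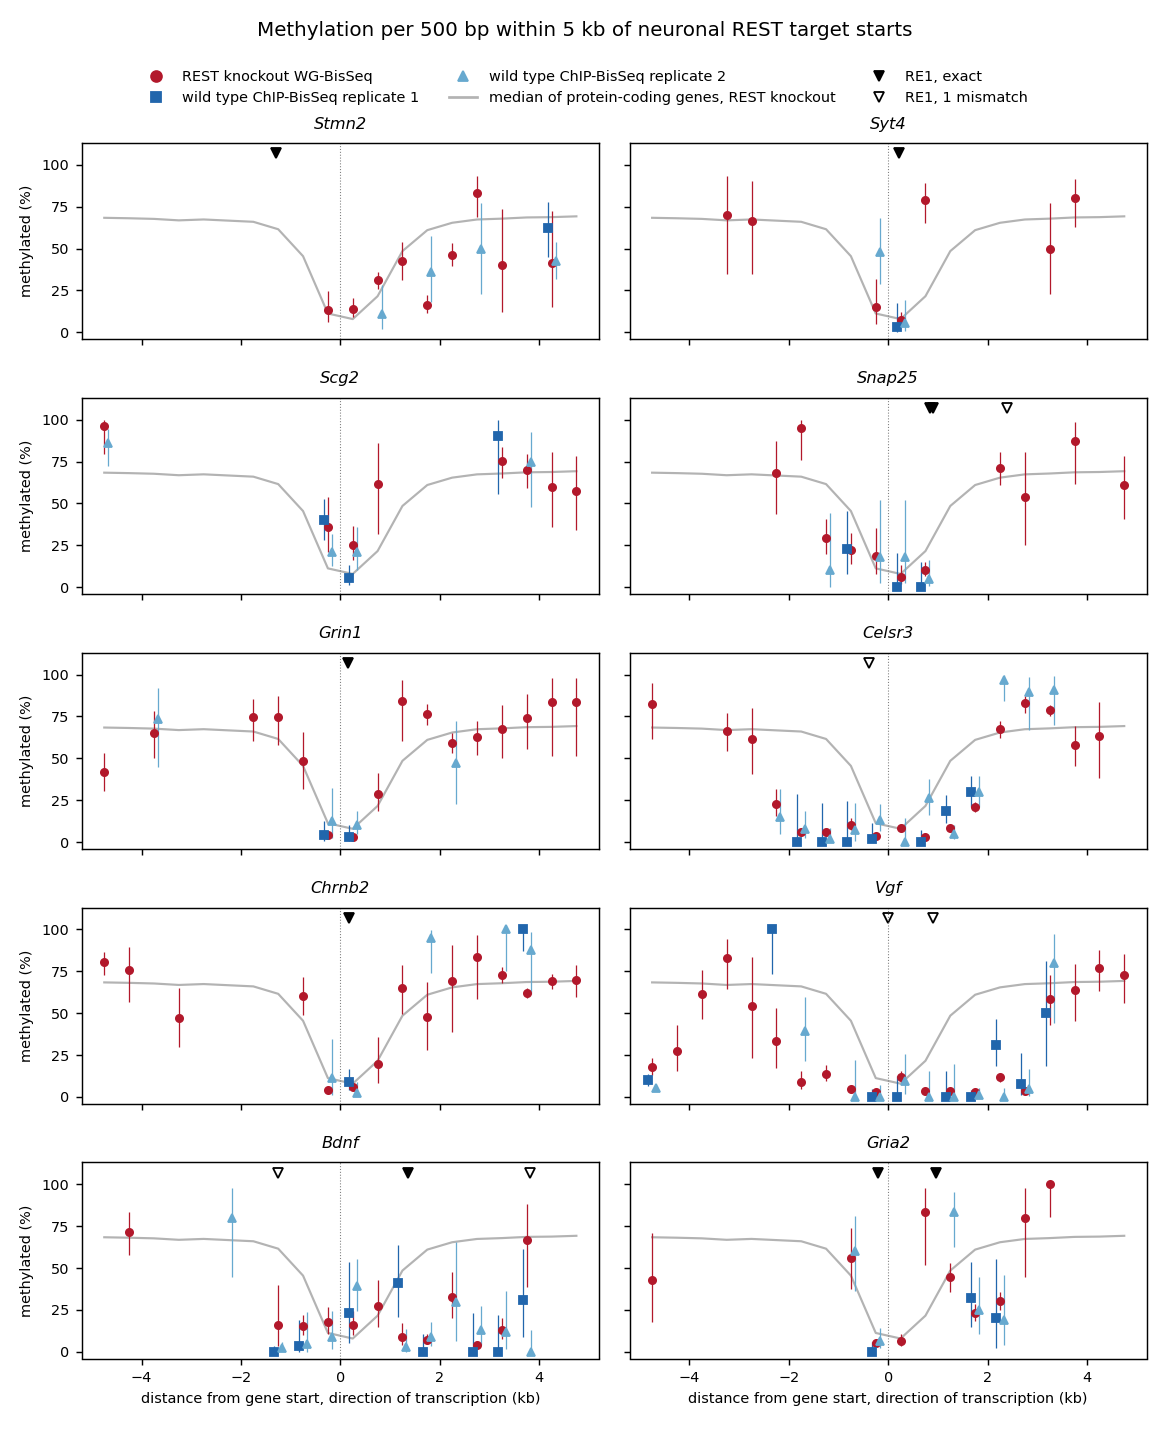
Percentage of methylated observations per 500 bp window (vertical axis) against distance from the gene start in the direction of transcription (horizontal axis, kb), for windows with at least 10 observations; circles are REST knockout, squares and triangles wild type ChIP-BisSeq replicates, bars exact 95% intervals, the grey line the median of protein-coding genes, and arrowheads RE1 matches. Every gene has windows under 50% on both sides of its start, and the low stretch is widest at Vgf, Bdnf and Celsr3.

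At Vgf the stretch ran from 2500 bp upstream to 3000 bp downstream, 5500 bp in all, and 7 of its 11 windows read under 10%. At Bdnf it ran over 5000 bp, from 1500 bp upstream to 3500 bp downstream, with windows between 4.28% and 32.7%. At Celsr3 it ran over 4500 bp, from 2500 bp upstream to 2000 bp downstream, with 20.7% in its last window and 67.3% in the next. Stmn2 had a stretch of 3000 bp that lay mostly downstream of the start and read between 13.3% and 46.4%, with no window under 10%. Coverage set its upstream end, since the window before it had 2 methylated of 4 observations. The window before the Bdnf stretch also had only 4 observations, 3 of them methylated.

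At the other genes the stretch was shorter. It spanned 2500 bp at Snap25, 2000 bp at Grin1, 1500 bp at Chrnb2 and 1000 bp at Syt4, Scg2 and Gria2. Coverage set some of these ends, since the window after the Snap25 stretch had 0 methylated of 7 observations, and the windows before those of Syt4 and Scg2 had 7 and 0 observations. At Grin1 the level was 3.04% in the first 500 bp downstream, 29.0% in the next and 84.2% in the one after. At Syt4 it went from 7.39% in the first 500 bp to 78.8% in the next. Gria2 was low in the 500 bp on both sides of the start, at 5.08% and 6.51%, and read 83.3% of 12 observations in the window that followed. A second, partly methylated stretch followed in the Gria2 gene, with 44.4%, 23.2% and 30.2% in the 3 windows from 1000 to 2499 bp downstream. In the wild type, replicate 2 read 83.3% of 24 observations from 1000 to 1499 bp. In the 2 windows after it, replicate 1 gave 32.0% and 20.0% and replicate 2 gave 25.0% and 18.8%.

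Some alternative starts of the same gene differed in level. For Bdnf, the levels within 250 bp of its starts in the REST knockout were 16.4% at the first, 21.4% at 1197 bp, 9.09% at 2394 bp, 36.0% at 17736 bp, 2.16% at 18863 bp and 9.09% at 19769 bp downstream. The interval at 18863 bp, 1.30 to 3.35%, does not overlap that at 17736 bp, 28.3 to 44.2%. For Grin1, starts annotated inside the gene read 12.9% at 13790 bp and 8.17% at 14087 bp, but 76.2% at 15402 bp and 81.4% at 22508 bp. Starts close together had similar levels, 1.68% to 2.57% over the 5 starts of Grin1 within its first 92 bp.

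The next question was whether the RE1 elements themselves were methylated once REST was gone. Of the 9 exact matches near the 10 genes, 6 read under 10% over the surrounding 200 bp in the REST knockout, that of Syt4 read 10.0%, the intronic match of Gria2 read 73.3%, and Stmn2 had too few observations to be read. The CpGs inside the 21 bases of the exact matches gave 14 methylated of 229 observations, 6.11%. Over exact matches within 1 kb of any protein-coding start this was 9.99% of 3253 observations, and 61.4% of 4777 at those over 5 kb away. Over the surrounding 200 bp, 50.5% of the testable matches within 1 kb of a protein-coding start read under 10%, beside 5 of the 7 near the 10 genes.

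Each exact match was then compared with its own flanks, 300 to 1000 bp away on both sides, by a two-sided Fisher's exact test with Benjamini-Hochberg adjustment over 1013 matches of the genome. A match was called at an adjusted p under 0.05 and a difference of at least 20 percentage points. Of the 8 matches near the 10 genes that could be tested, 3 were lower than their flanks and 1 was higher. Over all 1013 matches, 11.3% were lower and 10.4% higher. Within 1 kb of a protein-coding start, where 7 of the 8 lie, 10 of 101 matches were lower and 13 higher. So close to a start, the flanks can reach past the low stretch around it, as at Syt4. The part of this in the calls was not tested. The test compares positions within 1 library, and several observations can come from 1 molecule, so its p-values cover counting error only.

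**Figure D3:**
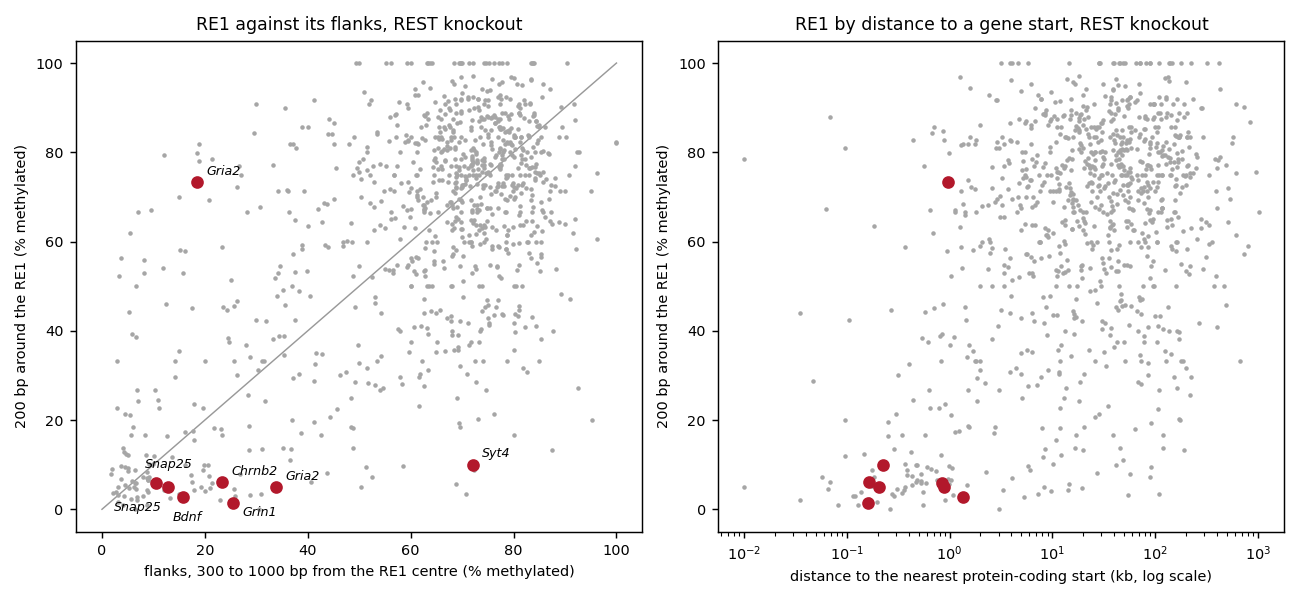
Left, percentage of methylated observations in the 200 bp around each exact RE1 match (vertical axis) against its flanks 300 to 1000 bp away (horizontal axis) in the REST knockout, with the line of equal values; right, the same vertical axis against the distance to the nearest protein-coding start (kb, log scale, distances under 10 bp drawn at 10 bp). Large points are the 8 matches near the 10 genes and small points the other matches; 7 of the 8 lie at 10.0% or less, and the Gria2 match at 73.3% stands above its flanks.

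With these flanks the largest difference was at Syt4, and with flanks from 500 to 2000 bp it was at Grin1, at −72.4 percentage points against −56.7 at Syt4. The 200 bp around its element read 10.0% of 80 observations (4.42 to 18.8%) against 72.1% of 61 in the flanks, an adjusted p of 4.05e-13 by Fisher's exact test. In the wild type, the same 200 bp read 0 of 25 observations and 4.17% of 24, and the flanks were read only in replicate 2, at 70.0% of 30 observations. The Syt4 element was low in all 3 libraries, and its flanks were high in both libraries that cover them.

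At Grin1 the element lies in the UTR part of an exon and read 1.38% of 1452 observations (0.843 to 2.12%) against 25.5% of 290 in the flanks, an adjusted p of 1.23e-40 by Fisher's exact test. Both wild type replicates read 0 of 54 observations, with an upper limit of 6.60%. Its single CpG, at base 11 of the printed element, had 3 methylated of 48 observations in the REST knockout and 0 of 10 and 0 of 4 in the wild type. Chrnb2 had the same layout, with 6.08% of 888 observations at the element and 23.3% of 227 in the flanks. That difference of −17.3 percentage points stayed under the minimum for a call, although its adjusted p was 2.35e-11 by Fisher's exact test. The wild type read 10.7% of 75 observations and 2.22% of 45 there. The 2 CpGs in the Chrnb2 element, at bases 11 and 18, had 4 methylated of 50 and 2 of 45 observations.

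Gria2 carried an element of each kind. The upstream element, at −206 bp, read 4.93% of 203 observations (2.39 to 8.87%) against 33.9% of 127 in its flanks, an adjusted p of 1.44e-10 by Fisher's exact test. The wild type read 0 of 11 observations and 3.28% of 61 there. The intronic element, 965 bp downstream, read 73.3% of 15 observations (44.9 to 92.2%) against 18.5% of 696 in its flanks, an adjusted p of 8.28e-05 by Fisher's exact test. Those flanks reach back to the low stretch at the start and forward into the partly methylated stretch farther downstream. Wild type replicate 1 had 0 methylated of 3 observations at the intronic element and replicate 2 had 4 methylated of 4, too few to compare.

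The surroundings of these elements are shown on mm9 in the direction of transcription, with CpGs in capitals, because the 2 Gria2 regions of equal length differ in both CpG number and methylation. Since Gria2 lies on the minus strand, its elements run there as the reverse complement of the letters printed above. The intronic region also takes in the start of the coding exon that follows.
Gria2 upstream, chr3:80606819-80607020, minus strand: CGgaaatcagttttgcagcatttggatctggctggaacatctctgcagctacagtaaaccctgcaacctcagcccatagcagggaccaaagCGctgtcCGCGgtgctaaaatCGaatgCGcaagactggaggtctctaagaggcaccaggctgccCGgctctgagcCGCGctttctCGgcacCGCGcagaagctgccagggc
Gria2 intronic, chr3:80605648-80605849, minus strand: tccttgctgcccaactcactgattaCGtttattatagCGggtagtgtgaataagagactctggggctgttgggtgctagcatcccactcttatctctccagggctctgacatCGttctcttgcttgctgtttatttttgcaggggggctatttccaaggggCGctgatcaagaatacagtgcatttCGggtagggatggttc
Snap25 intronic, chr2:136539932-136540133, plus strand: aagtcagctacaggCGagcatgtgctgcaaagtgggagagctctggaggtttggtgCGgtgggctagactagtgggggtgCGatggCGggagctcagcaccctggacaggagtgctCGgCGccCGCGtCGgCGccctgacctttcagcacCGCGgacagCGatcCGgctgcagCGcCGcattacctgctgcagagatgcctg

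The upstream Gria2 region has 12 CpGs, all covered 10 to 23 times in the REST knockout, of which 5 had no methylated observation and the highest read 20.0%. The intronic Gria2 region has 5 CpGs with 2 to 5 observations each, the lowest at 50.0% and the highest at 100%. The Snap25 region has 16 CpGs, holds both Snap25 elements and read 5.94%, with 7 CpGs without a methylated observation and the highest at 20.0%.

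At Snap25 the 200 bp around the first element read 5.94% of 202 observations and those around the second 4.95% of 182, and these 2 windows overlap. Their flanks were also low, at 10.5% and 12.8%, and the adjusted p was 0.280 and 0.0581 by Fisher's exact test, so neither passed the test. This depended on the flanks. Taken from 500 to 2000 bp, they read 33.1% and 33.9%, and both Snap25 elements were called lower, with adjusted p of 4.44e-13 and 5.23e-14 by Fisher's exact test. With those flanks, at 57.1%, the Chrnb2 element was called lower too. The wild type read 0 of 16 and 0 of 27 observations at the first element. The second element holds 3 CpGs, with 0 of 11, 1 of 12 and 1 of 15 observations methylated in the REST knockout. At Bdnf the element read 2.70% of 37 observations against 15.8% of 292 in the flanks, with an adjusted p of 0.117 by Fisher's exact test, and wild type values of 30.0% of 10 and 4.76% of 21. The Stmn2 element had 0 methylated of 4 observations in the REST knockout, with an upper limit of 60.2%, and 0 of 1 and 0 of 6 in the wild type.

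The matches with 1 mismatch are less specific. That of Celsr3 read 4.06% of 443 observations and lies inside the long low stretch, and those of Vgf read 6.47% of 866 next to the start and 3.09% of 583 in a coding exon. At Snap25 a match 2392 bp downstream read 67.3% of 52 observations. The 2 such matches of Bdnf had 9 and 2 observations.

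In the REST knockout the median level of exact RE1 matches was 9.83% within 1 kb of a protein-coding start, 60.0% from 1 to 5 kb, 72.2% from 5 to 50 kb and 74.1% beyond. Of the 8 testable matches near the 10 genes, 7 lay within 1 kb of a start, and their median was 5.44% over all 8.

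Wild type and REST knockout were compared directly where all 3 libraries had at least 10 observations, in 36 windows of the 10 genes among 49819 windows of all protein-coding genes. A call required an adjusted p under 0.05 by Fisher's exact test for each wild type replicate, with both of them at least 20 percentage points above or both below the REST knockout. No window of the 10 genes was called in either direction. Over all genes, 2.54% of windows were called higher in the REST knockout and 1.62% lower, so 0 of 36 is near the background and says little about these genes. Taken alone, replicate 1 and replicate 2 each passed the adjusted p in 7 of the 36 windows, which is 19.4%, with 3 higher and 4 lower in the REST knockout. Over all genes 21.7% and 22.7% of windows passed. The unadjusted p was under 0.05 in 8 and 10 of the 36 windows, against 16338 and 16688 of the 49819 windows of all genes. The REST knockout lay above both replicates in 15 windows, below both in 7 and otherwise in 14. Over all 49819 windows these were 22971, 10001 and 16847. Without replicate 1, 1 of 61 windows was called higher in the REST knockout and 6 lower, against 3.90% and 6.97% of all windows. Without replicate 2, 0 of 39 were called higher and 3 lower, against 4.69% and 9.88%. These tests compare libraries and not genotypes.

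In 1 window both replicates passed the adjusted p in the same direction. It lies upstream of Vgf, from −5000 to −4501 bp, where the REST knockout read 18.0% of 239 observations against 9.86% of 284 and 5.17% of 947 in the wild type, with adjusted p of 0.0369 and 8.755e-08 by Fisher's exact test. The differences of 8.13 and 12.8 percentage points stayed under the minimum. Coverage of this window was 20.6 and 36.4 times the library mean in the wild type replicates, and the part of the CTCF precipitation in the difference was not tested. Upstream of Bdnf, from −1500 to −1001 bp, the REST knockout read 15.8% of 19 observations against 0 of 101 and 2.53% of 198, with adjusted p of 0.0208 and 0.0883 by Fisher's exact test. It too was covered 12.4 and 12.9 times the mean in the wild type. In windows of 250 bp, an alternative, 2 of 35 windows were called higher, both upstream of Bdnf, against 1.93% of all windows. From −1000 to −751 bp, the REST knockout read 70.0% of 20 observations against 0 of 22 and 0 of 10, and from −1250 to −1001 bp 21.4% of 14 against 0 of 91 and 1.06% of 188. In windows of 1000 bp, 1 of 31 was called higher and 2 lower, against 3.33% and 3.05% of all windows. From −2000 to −1001 bp in Bdnf the REST knockout read 26.1% of 23 observations, above 0 of 101 and 3.50% of 200. In the first 1000 bp of Bdnf it read 19.3% of 161, below 52.4% of 21 and 41.3% of 46. From 3000 bp downstream in Chrnb2 it read 64.7% of 1505 over 1000 bp, below 100% of 33 and 93.1% of 29.

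Some differences passed the test in a single replicate. In the first 500 bp of Scg2 the REST knockout read 25.3% of 79 observations against 5.48% of 73 in replicate 1, an adjusted p of 0.00628 by Fisher's exact test, but 20.9% of 43 in replicate 2. In the second 500 bp of Celsr3, the REST knockout read 3.14% and replicate 1 0 of 49, while replicate 2 read 26.0% of 73. From 3500 to 3999 bp in Chrnb2, a methylated stretch of 30 CpGs, the REST knockout read 62.2% of 1150 observations, below 100% of 27 and 87.5% of 16 in the wild type. The window from 3500 to 3999 bp in Bdnf went the other way, with 66.7% of 15 observations in the REST knockout against 30.8% of 13 in replicate 1 and 0 of 27 in replicate 2, where the adjusted p was 4.01e-05 by Fisher's exact test. Over 6981 windows of all genes above 50% in the REST knockout, the medians were 67.7% there and 81.8% and 72.7% in the wild type replicates. Over 26510 windows under 10% in the REST knockout, they were 4.38% there and 0% and 2.94% in the wild type. The part of these library-wide offsets in the windows of the 10 genes was not tested.

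At the elements themselves, 6 of the exact matches had at least 10 observations in all 3 libraries, 1 each at Syt4, Snap25, Grin1, Chrnb2, Bdnf and Gria2. By the same rule 0 of the 6 were called in either direction. A call in either direction was out of reach at each of them, so the 0 says nothing about a difference. The REST knockout read at most 10.0%, the value at Syt4, too low for a higher call. The lower wild type replicate read at most 4.76%, the value at Bdnf, too low for a lower call. The differences were at most 10.0 percentage points at Syt4, Snap25, Grin1, Chrnb2 and Gria2 in either replicate. At Bdnf the REST knockout minus wild type difference was −27.3 percentage points for replicate 1 and −2.06 for replicate 2, with adjusted p of 0.0594 and 1 by Fisher's exact test. Among 114 exact matches of the genome that could be compared, 27.2% were called higher in the REST knockout and 0% lower. These are matches that both CTCF ChIP-BisSeq replicates cover, and their medians were 0% and 4.09% there, beside 13.4% in the REST knockout. Where a replicate read near 0%, the REST knockout could not be lower by the minimum difference. The lack of lower calls is therefore no evidence of a one-sided difference. Within 1 kb of a start 6 of 55 were called higher, and from 5 to 50 kb 15 of 31. Whether the elements of the 10 genes differ from the others was not tested. This comparison was added after the data had been seen.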

How the data were processed

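Altogether 3 libraries of mouse ES cells were used, 1 REST knockout WG-BisSeq and 2 wild type CTCF ChIP-BisSeq replicates. The authors deposited counts per CpG for each library, the number of observations and of methylated observations, as whole numbers without normalization and listing only CpGs with at least 1 observation. Per the submitters' processing notes, reads were mapped to mm9 and Bowtie 0.10.0.1 was used. Whether duplicates were removed was not given in the sources used here. CpGs on mitochondrial DNA were left out.

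The genes and lists were chosen with earlier results of these data known. The genes, their RE1 matches and list extremes are named, except 1 list gene that is not reported here. Windows called only under an alternative were named after their values were seen, or counted. Gene starts were the 5′ ends of GENCODE vM1 gene records. Counts were summed over regions, and regions with fewer than 10 observations were not read or tested. Intervals are exact 95% Clopper-Pearson intervals. Fisher's exact tests were two-sided and adjusted over all windows or matches. They were tried on simulated counts with independent observations and no offset between libraries, which does not show how they perform on these data. Alternatives changed the coverage minimum, region size, start, mismatches, flanks, minimum difference and replicates. Python 3.11.15, NumPy 2.4.6, pandas 2.3.3, SciPy 1.17.1 and matplotlib 3.10.9 were used.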

Additional observations from a re-analysis of the deposited data

How the results depend on the processing

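No paired analysis was possible because there is 1 REST knockout library and its label carries no replicate number. The wild type values at the 10 genes rest on few observations, and a CTCF precipitation reads some regions more than others. Of the recomputed values, 131 stayed within 1.5 times (counts) or within the exact interval of the value given (levels), and 31 did not. For the median of the 10 starts the limits were wider, from the lower limit of Gria2, 3.97%, to the upper limit of Syt4, 13.3%. All recomputed medians stayed inside them. The median of the 10 starts read 4.11% at a coverage of at least 20, where 5 genes were left, and 10.5% within 1000 bp. Windows of the 10 genes called higher in the REST knockout numbered 2 of 35 with windows of 250 bp and 1 of 31 with 1000 bp, in place of 0. Over all windows these shares were 1.93% and 3.33%. With no minimum difference 1 of 36 was called higher (upstream of Vgf), and with replicates pooled 1 of 72, against 6.27% and 3.95% of all windows. Windows called lower numbered 2 of 31 with 1000 bp and 9 of 72 with replicates pooled, 12.5%, against 3.05% and 10.7% of all windows. With 1 wild type replicate left out, 0 to 1 were called higher and 3 to 6 lower. Over all windows these calls made up 3.90% to 4.69% and 6.97% to 9.88%. Of the windows of the 10 genes, 0 were called lower in both cases. Of the RE1 matches near the genes, 6 of 8 were lower than flanks taken from 500 to 2000 bp, against 133 of 1040 in the genome. These include the 2 Snap25 matches, whose windows overlap. With a central 100 bp or with at least 20 observations, 0 of 7 were higher, against 79 of 742 and 81 of 715 in the genome. There the intronic Gria2 match had too few observations. Of the genome's RE1 matches, 14 of 62 were called higher in the REST knockout with at least 20 observations and 1 of 196 lower with at least 5. Without replicate 1 or 2, 57 of 207 and 59 of 171 were called higher, 27.5% and 34.5%, and 7 and 3 lower. Of the 26 other REST-regulated genes, 1 read over 50% within 1000 bp. At that width Stmn2 read 24.4% and Syt4 23.1%, and at a coverage of at least 5 Scg2 read 18.0% and Snap25 5.26%. The causes were not tested.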
